A study of Mus musculus with 24 samples.

Results

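Hearts taken at 2 times on opposite sides of the day were compared: ZT15, which is 3 h after lights-off, and ZT03, which is 3 h after lights-on (ZT, zeitgeber time, counts hours from lights-on). Of the 24 arrays of the series, which cover 6 times of day, the 8 arrays labelled with these times were used, 4 per time. All mice were male wild-type C57Bl/6, 8 weeks old, and lived under 12 h of light alternating with 12 h of darkness. The hearts, labelled myocardium, were snap frozen, and the labels call the 4 samples of a time biological replicates. The p-values measure the spread between these samples. No allele, drug or other treatment is named for any group. The comparison addresses which heart transcripts differ between early night, when mice are active and feeding, and early day, when they rest. The light cycle, feeding, the clock and any batch shared by the arrays of a time cannot be told apart in this design.

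The circadian clock is a loop of transcription factors in nearly every cell. BMAL1 (gene Arntl) with CLOCK or NPAS2 binds E-box elements and drives the PER, CRY and CHRONO (Ciart) repressors, the REV-ERB receptors (Nr1d1, Nr1d2) and the PAR bZIP factors DBP, TEF and HLF. The REV-ERBs in turn repress Arntl, the repressors shut off BMAL1, and the PAR bZIP factors act on D-box elements. In heart muscle this loop is known to time fuel use, contractile protein turnover and ion channel expression.

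Each value is a log2 difference from the gene's own median over the 24 arrays, so genes cannot be compared in level and no gene can be called present or absent. A difference is the mean of the ZT15 arrays minus that of the ZT03 arrays, with its standard error (SE, n = 4 against 4). Adjusted p-values are from limma's moderated test over 22180 genes with Benjamini-Hochberg adjustment, and a gene was called at an adjusted p below 0.05. In bulk tissue, fewer cells of a type and less RNA per cell cannot be told apart.

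At ZT15, 170 genes were higher (0.766% of those tested) and 204 were lower (0.92%), 374 in all (1.69%). Without adjustment, 2753 genes had a p below 0.05. Most changes were small. The median called change was 1.32-fold and the smallest 1.13-fold. There were 87 called genes at 1.5-fold or more, 42 higher and 45 lower, and 24 at 2-fold or more, 12 in each direction. For all 374 called genes the 4 arrays of one time lay wholly above those of the other, which was so for 7.8% of all genes. The median difference over all genes was 0.0066. Protein-coding genes made up 362 of the called genes.

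**Figure D1:**
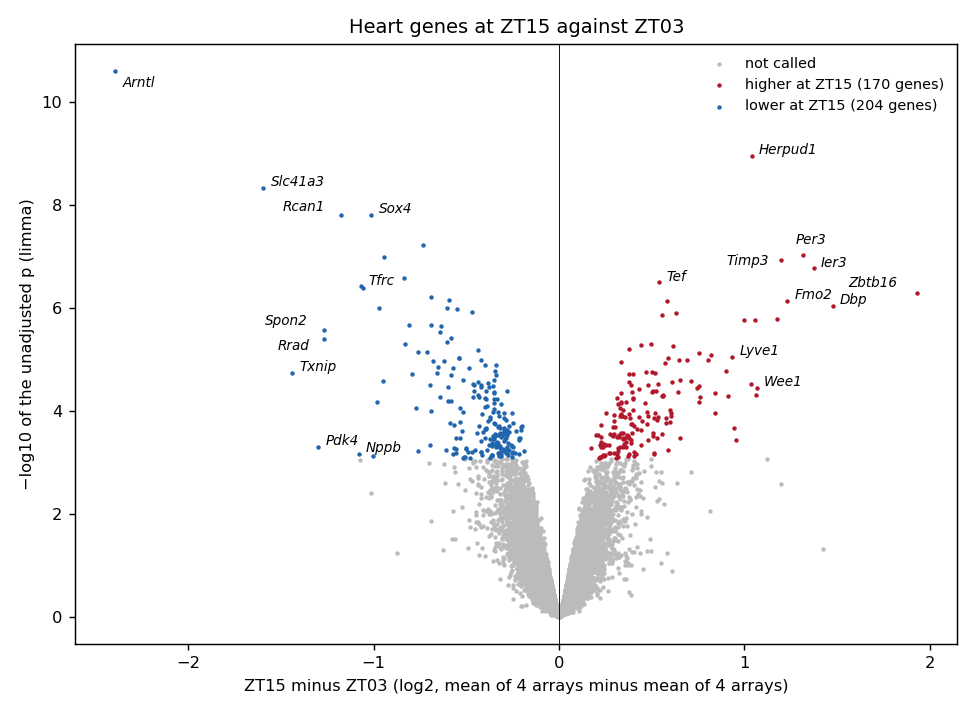
Difference between ZT15 and ZT03 for each of 22180 genes (x axis, log2) against the −log10 of its unadjusted p (y axis). Red points are the 170 genes called higher at ZT15, blue points the 204 called lower and grey points genes not called; Arntl stands farthest to the left and Zbtb16 farthest to the right among called genes.

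The array of ZT15 replicate 1 stood apart from the others. Over all genes its SD was 0.168, against 0.107 to 0.121 for the other 7 arrays. Without it, 341 genes were called (1.54%), of which 275 were among the 374. The test was repeated with each of the 8 arrays left out in turn, and 149 of the 374 genes were called every time. A called gene named below kept its call in all 8 repeats unless the text says that the call was lost. Correlations between arrays over genes were 0.117 to 0.255 within ZT03, -0.0604 to 0.236 within ZT15 and -0.303 to 0.0191 between the times.

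The called activators and the called PER, CRY and CHRONO repressors went opposite ways, a split that the REV-ERB genes did not follow. Of the 4 measured activators, Arntl, Clock and Npas2 were lower at ZT15 and none was higher. Arntl had values of 1.55, 1.35, 1.49 and 1.30 in the ZT03 arrays and -0.998, -0.93, -1.02 and -0.95 in the ZT15 arrays. It was 5.26-fold lower at ZT15, the largest difference among called genes (-2.39 ± 0.060, adjusted p = 5.65e-07). Clock, the partner of BMAL1, had values of 0.57, 0.52, 0.46 and 0.44 at ZT03 and -0.47, -0.36, -0.33 and -0.095 at ZT15, with no overlap. Its difference was -0.81 ± 0.075 (adjusted p = 0.00154). Npas2, which can replace CLOCK, differed by -0.77 ± 0.11 (adjusted p = 0.0136), and Arntl2 by -0.065 ± 0.070 (adjusted p = 0.813, not called).

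All 7 measured PER, CRY, CHRONO and DEC repressors had higher means at ZT15, and 4 were called. The list's median difference was 0.61. Per3 had values of -1.07, -0.85, -0.77 and -0.63 at ZT03 and 0.49, 0.43, 0.47 and 0.56 at ZT15, a tight group well above the wider ZT03 arrays. It was 2.49-fold higher (1.32 ± 0.085, adjusted p = 0.000288). Ciart, whose CHRONO protein represses CLOCK and BMAL1, was 1.79-fold higher (0.84 ± 0.11, adjusted p = 0.00887). Cry1 differed by 0.61 ± 0.092 (adjusted p = 0.0155) and lost its call without ZT03 replicate 2 (adjusted p = 0.0556). Cry2 differed by 0.58 ± 0.091 (adjusted p = 0.0173), a call lost without ZT03 replicate 2 or 3 or ZT15 replicate 2 (adjusted p up to 0.0611).

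Per1 had a large mean difference that was not called. Its ZT03 values of -1.48, -1.16, -0.60 and -0.016 spanned more than the whole ZT15 group, at 0.50, 0.45, 0.62 and -0.027. The groups overlapped, and its difference was 1.20 ± 0.29 (adjusted p = 0.0919). The DEC repressors Bhlhe40 and Bhlhe41 differed by 0.44 ± 0.14 and 0.42 ± 0.12 and were not called (adjusted p = 0.184 and 0.154). Between 2 and 5 members of this list were called when 1 array was left out. All 7 were called when the 24 arrays were fitted together, a fit in which 679 genes were called (3.06%).

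The PAR bZIP genes were higher at ZT15 in 3 of 4 cases, counting the related repressor Nfil3 as the fourth. Dbp, a classic direct target of BMAL1, had values of -1.16, -1.17, -1.11 and -0.76 at ZT03 and 0.21, 0.27, 0.66 and 0.55 at ZT15. The groups lay far apart, and Dbp was 2.78-fold higher (1.48 ± 0.12, adjusted p = 0.00101). Hlf differed by 0.82 ± 0.090 (adjusted p = 0.00397) and Tef by 0.54 ± 0.040 (adjusted p = 0.000595). Of the 2 Tef probe sets, one differed by 0.91 ± 0.047 and was called. The other differed by 0.17 ± 0.047 and was not called (adjusted p over probe sets = 0.138). Nfil3, whose product competes with the PAR bZIP factors for D-boxes, differed by -0.063 ± 0.080 and was not called (adjusted p = 0.848).

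The 2 REV-ERB genes were called in opposite directions, both near the threshold. Nr1d1 had values of 0.17, 0.57, 0.32 and 0.79 at ZT03 and -0.60, -0.29, -0.16 and -0.13 at ZT15, 1.69-fold lower (-0.76 ± 0.15, adjusted p = 0.0413). Its call was lost without ZT03 replicate 2, 3 or 4 or ZT15 replicate 1, 2, 3 or 4 (adjusted p up to 0.121). Nr1d2 had values of -0.48, -0.44, -0.31 and -0.024 at ZT03 and 0.024, 0.38, 0.34 and 0.34 at ZT15, 1.502-fold higher (0.59 ± 0.11, adjusted p = 0.0413). That call was lost without ZT03 replicate 1, 2 or 3 or ZT15 replicate 2, 3 or 4 (adjusted p up to 0.121). Neither of these times is an extreme of Nr1d1: its mean was 1.15 ± 0.19 (SD, n = 4) at ZT07 and -1.44 ± 0.20 at ZT19. The receptors Rora and Rorb, which act on the same elements as the REV-ERBs, differed by 0.15 ± 0.061 and 0.051 ± 0.046 and were not called.

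Of 6 other clock components, Usp2 alone was called. It encodes a deubiquitinase that acts on PER1 and BMAL1. Its values were -0.99, -0.80, -0.78 and -0.48 at ZT03 and 0.24, 0.37, 0.30 and 0.26 at ZT15, 2.08-fold higher (1.05 ± 0.095, adjusted p = 0.00133). Csnk1e, Fbxw11, Fbxl21, Nono and Timeless had differences from -0.043 to 0.038, and none was called.

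**Figure D2:**
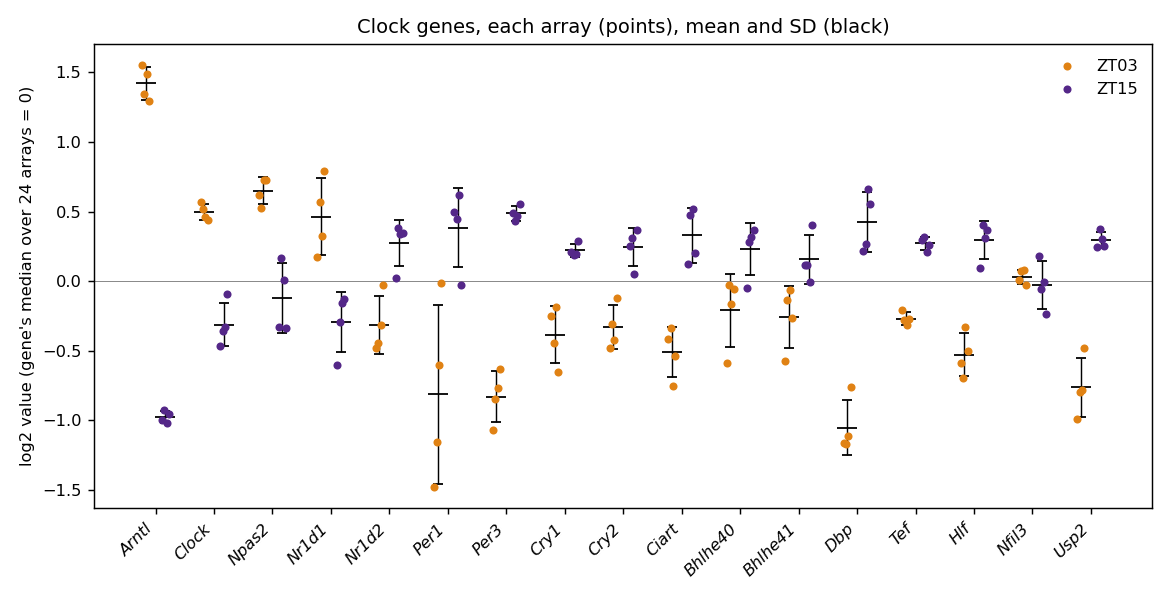
Log2 value of 17 clock genes in each of the 4 ZT03 arrays (orange) and 4 ZT15 arrays (purple), with the mean and SD in black and 0 at the gene's median over 24 arrays. Arntl, Clock and Npas2 lie lower at ZT15, Per3, Dbp, Tef, Hlf and Usp2 lie higher, and the Per1 arrays overlap between the times.

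Promoter sequences were at hand for several of these genes, from RefSeq's mouse assembly GRCm38.p6, each running from 250 bases before a transcript start to 50 after it. They are shown for 4 clock genes that differed and whose windows hold the letters of a clock element, searched on both strands; the capitals mark the matches. Cry1, not shown, also holds the E-box letters. For Dbp no match to any of the 3 motifs was found, but not every called gene had a window to search. In Arntl the core of the ROR element, TAGGTCA, lies after the start, at chr7:113207261-113207560 on the plus strand. In Ciart the E-box CACGTG occurs 3 times, at chr3:95882179-95882478 on the minus strand. In Per3 the D-box TTATGTAA occurs 2 times and the E-box letters do not, at chr4:151044616-151044915 on the minus strand. Tef has 2 windows with 1 E-box each, at chr15:81802423-81802722 and chr15:81811164-81811463 on the plus strand.
Arntl: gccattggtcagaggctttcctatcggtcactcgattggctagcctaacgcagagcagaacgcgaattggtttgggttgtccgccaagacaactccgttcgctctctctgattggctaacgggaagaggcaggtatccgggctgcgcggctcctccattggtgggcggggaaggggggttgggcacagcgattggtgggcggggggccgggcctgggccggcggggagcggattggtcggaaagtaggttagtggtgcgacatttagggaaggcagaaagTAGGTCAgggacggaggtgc
Ciart: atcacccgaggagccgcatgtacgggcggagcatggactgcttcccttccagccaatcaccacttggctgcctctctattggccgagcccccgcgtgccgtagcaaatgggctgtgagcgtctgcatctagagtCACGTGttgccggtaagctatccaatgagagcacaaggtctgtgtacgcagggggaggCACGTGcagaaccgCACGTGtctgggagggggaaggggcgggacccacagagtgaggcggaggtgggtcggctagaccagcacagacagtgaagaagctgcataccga
Per3: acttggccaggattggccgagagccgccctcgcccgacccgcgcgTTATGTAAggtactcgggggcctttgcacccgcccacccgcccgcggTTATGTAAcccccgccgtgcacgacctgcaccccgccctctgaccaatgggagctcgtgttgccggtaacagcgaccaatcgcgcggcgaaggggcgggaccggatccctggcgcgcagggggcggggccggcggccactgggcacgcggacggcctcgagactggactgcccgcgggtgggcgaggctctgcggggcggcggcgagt
Tef, first window: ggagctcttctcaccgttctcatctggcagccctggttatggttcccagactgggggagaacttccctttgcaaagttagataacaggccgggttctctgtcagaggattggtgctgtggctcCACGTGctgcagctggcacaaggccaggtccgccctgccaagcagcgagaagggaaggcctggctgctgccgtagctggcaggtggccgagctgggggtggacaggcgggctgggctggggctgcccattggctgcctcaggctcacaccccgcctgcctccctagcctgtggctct
Tef, second window: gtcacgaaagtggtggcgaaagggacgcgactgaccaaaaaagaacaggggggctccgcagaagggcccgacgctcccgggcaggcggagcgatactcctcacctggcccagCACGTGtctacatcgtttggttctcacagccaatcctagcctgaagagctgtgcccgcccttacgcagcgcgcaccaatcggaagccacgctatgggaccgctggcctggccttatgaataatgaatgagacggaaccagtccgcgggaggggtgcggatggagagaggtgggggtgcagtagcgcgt
A match is a description of these letters and not a binding site, and none of the 3 motifs contains another. Of the protein-coding genes with a window, the E-box letters were in 12.6% of the 135 higher at ZT15, 13.8% of the 160 lower and 9.4% of all 15359. D-box letters were found in 1.48% of the higher genes (Per3 and Coq10b), none of the lower and 1.01% of all. The ROR core was in 1.48% of the higher, 3.75% of the lower and 2.64% of all. For each motif the shares of the higher and the lower genes lay within a few percentage points of each other.

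Outside the clock, glucocorticoid-responsive genes gave the longest run in one direction. Corticosterone in mice is known to rise towards the dark phase. Of 26 such genes measured, 8 were higher at ZT15 and none lower, and the list's median difference was 0.31. Zbtb16, a zinc-finger repressor that steroids induce, had the largest higher value of all called genes. It stood at -1.04, -1.08, -0.91 and -1.05 at ZT03 and 1.05, 1.16, 1.05 and 0.39 at ZT15, where replicate 4 lay well below the other 3 but above every ZT03 array. It was 3.82-fold higher (1.93 ± 0.15, adjusted p = 0.000762).

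Pik3r1, the regulatory subunit of PI3-kinase, had values of -0.38, -0.29, -0.41 and -0.50 at ZT03 and 0.12, 0.25, 0.48 and 0.34 at ZT15 (difference 0.69 ± 0.078, adjusted p = 0.00423). Fkbp5, a chaperone that damps the glucocorticoid receptor, stood at -0.27, -0.21, 0.0048 and -0.40 and at 0.43, 0.45, 0.52 and 0.33 in the same order (difference 0.65 ± 0.083, adjusted p = 0.0072). Neither gene's groups overlapped. Hsd11b1, the enzyme that regenerates active glucocorticoid, differed by 0.52 ± 0.079 (adjusted p = 0.0155), a call lost without ZT03 replicate 2 or 4 (adjusted p up to 0.0556). The other 4 called members, named after their values were seen, were Tsc22d3 at 0.60, Sult1a1 at 0.51, Mt1 at 0.41 and Foxo3 at 0.35. Tsc22d3 lost its call without ZT15 replicate 3, Sult1a1 without ZT03 replicate 1, 2 or 3, Mt1 in 6 of the 8 repeats and Foxo3 in 7 (adjusted p up to 0.0512, 0.0604, 0.0728 and 0.1). Mt1 held without ZT03 replicate 1 or ZT15 replicate 1, and Foxo3 without ZT15 replicate 1. Members that did not pass included Mt2 at 1.12 (adjusted p = 0.0505), Sgk1 at 0.40 (adjusted p = 0.0529) and Angptl4 at -1.01 (adjusted p = 0.112). With 1 array left out, 5 to 9 members were called. Klf12, with a difference of 0.43 ± 0.067 (adjusted p = 0.0168, lost without ZT03 replicate 2 or 3), was the 1 called gene of 12 Kruppel-like factors.

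Cytosolic heat shock genes were also higher at ZT15 wherever they were called, in 4 of 23 measured and with a list median of 0.086. Dnajb1, a co-chaperone of HSP70, had values of -0.20, -0.18, -0.13 and -0.14 at ZT03 and 0.27, 0.48, 0.28 and 0.30 at ZT15 (difference 0.50 ± 0.051, adjusted p = 0.00292). The inducible HSP70 genes Hspa1a and Hspa1b differed by 0.75 ± 0.082 and 0.84 ± 0.13 (adjusted p = 0.00372 and 0.0155). They are near-identical copies whose probes may not tell them apart, and Hspa1b lost its call without ZT15 replicate 2 or 3 (adjusted p up to 0.0554). Hspa8, the constitutive HSP70, differed by 0.35 ± 0.065 (adjusted p = 0.0366), with 4 probe sets between 0.22 and 0.42, and lost its call without ZT03 replicate 1, 2, 3 or 4 or ZT15 replicate 1, 2 or 4. Its probe sets at 0.42 and 0.41 were not called on their own (adjusted p over probe sets = 0.071 and 0.068). Srsf5, a splicing factor, was the 1 called gene on both the list of cold-inducible RNA-binding genes (2 measured) and that of splicing genes (28 measured), 1.40-fold lower (-0.49 ± 0.057, adjusted p = 0.00518).

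Among 27 endoplasmic reticulum folding genes, Herpud1 stood alone in size. This membrane protein serves the degradation of misfolded proteins at the endoplasmic reticulum. Its values were -0.54, -0.57, -0.55 and -0.51 at ZT03 and 0.44, 0.52, 0.57 and 0.46 at ZT15. Replicates lay close together at both times, and Herpud1 was 2.06-fold higher (1.04 ± 0.040, adjusted p = 1.23e-05). Ppp1r15a, which helps to restore translation after stress, was lower (-0.35 ± 0.052, adjusted p = 0.0138). The list's median was -0.080, and no other member was called. None of 30 proteasome subunits was called (smallest adjusted p = 0.142, Psmd4), against 1.69% of all genes.

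In the list of autophagy and atrophy genes, 3 of 26 were called. Trim63 and Fbxo32, the muscle ubiquitin ligases MuRF1 and atrogin-1, were both lower at ZT15. Trim63 had values of 0.33, 0.44, 0.53 and 0.52 at ZT03 and -0.22, -0.028, -0.23 and -0.15 at ZT15 (difference -0.61 ± 0.062, adjusted p = 0.00274). Fbxo32 differed by -0.51 ± 0.10 (adjusted p = 0.0484), a call lost without ZT03 replicate 1, 2, 3 or 4 or ZT15 replicate 1, 3 or 4 (adjusted p up to 0.127). Foxo3, a transcription factor known to drive both ligases, was higher (0.35 ± 0.064, adjusted p = 0.0351), a call lost without ZT03 replicate 1, 2, 3 or 4 or ZT15 replicate 2, 3 or 4 (adjusted p up to 0.1).

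Among fuel genes a few regulators were called. Txnip, which restrains glucose uptake, had values of 1.58, 0.68, 0.93 and 1.03 at ZT03 and -0.22, -0.45, -0.62 and -0.26 at ZT15. It was 2.72-fold lower at ZT15 although its ZT03 arrays were widely spread (-1.44 ± 0.17, adjusted p = 0.00587). Of 24 genes of glucose uptake and glycolysis the other one called was Pfkfb2, lower by -0.33 ± 0.065 (adjusted p = 0.0469, lost without ZT03 replicate 2, 3 or 4 or ZT15 replicate 1, 2, 3 or 4). Pdk4, the kinase that switches off pyruvate dehydrogenase, had values of 1.27, 0.19, 0.69 and 1.06 at ZT03 and -0.91, -0.43, -0.58 and -0.062 at ZT15. The groups did not overlap, and Pdk4 was 2.46-fold lower (-1.30 ± 0.24, adjusted p = 0.0377). That call was lost without ZT03 replicate 1, 3 or 4 or ZT15 replicate 1, 2 or 3 (adjusted p up to 0.105). It was the 1 called gene of 13 in the pyruvate dehydrogenase list.

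Uncoupling protein gene Ucp3 had values of 1.11, 0.022, 0.30 and 0.97 at ZT03 and -0.44, -0.39, -0.61 and -0.47 at ZT15, and its difference of -1.07 ± 0.22 was not called (adjusted p = 0.052). None of the 27 genes of fatty acid uptake and oxidation was, and their median was -0.047. None of 16 tricarboxylic acid cycle genes, 50 respiratory chain genes and 22 genes of branched-chain amino acid breakdown was called either, with medians of -0.021, -0.0035 and 0.00090. With 1.69% of all genes called, lists of these sizes would often hold none. Ppp1r3b, which brings phosphatase to glycogen, was higher (0.61 ± 0.078, adjusted p = 0.00744), the 1 called of 18 glycogen genes. Its probe sets were at 0.84 and 0.38, the latter not called on its own (adjusted p over probe sets = 0.245). Dgat2, the last enzyme of triglyceride synthesis, had values of -0.41, -0.59, -0.19 and -0.35 at ZT03 and 0.48, 0.36, 0.29 and 0.18 at ZT15 (1.64-fold higher, difference 0.71 ± 0.090, adjusted p = 0.0073). Lpin1, a phosphatidate phosphatase and coactivator, was lower (-0.35 ± 0.048, adjusted p = 0.00897), and these were the called genes among 22 of triglyceride metabolism.

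The fatty acid receptor gene Ppara was higher (0.30 ± 0.046, adjusted p = 0.0161), a call lost without ZT03 replicate 1 or 3 or ZT15 replicate 3 (adjusted p up to 0.0561). Gabpa, a factor for mitochondrial genes, was lower (-0.40 ± 0.046, adjusted p = 0.00474), and with Lpin1 these were 3 called of 16 regulators. Insig1, which holds the SREBP complex in the endoplasmic reticulum, had values of 0.35, 0.33, 0.47 and 0.50 at ZT03 and -0.15, -0.35, -0.15 and -0.28 at ZT15, 1.56-fold lower (-0.64 ± 0.062, adjusted p = 0.0019). Hmgcs1, an early enzyme of sterol synthesis, was lower too (-0.38 ± 0.059, adjusted p = 0.0181, lost without ZT03 replicate 1 or 2 or ZT15 replicate 2). Both came from 21 sterol genes with a median of -0.078.

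In insulin signalling, 3 of 26 were called and they split. Pik3r1 was higher, as given above, and the insulin receptor gene Insr and its substrate Irs1 were lower. Irs1 differed by -0.52 ± 0.066 (adjusted p = 0.00717), with probe sets at -0.80 and -0.25, the latter not called on its own (adjusted p over probe sets = 0.149). Insr differed by -0.31 ± 0.060 (adjusted p = 0.0393, lost without ZT03 replicate 2 or 3 or ZT15 replicate 1, 2, 3 or 4). On the list named amino acid transporters, 3 of 17 genes were called, all higher. A place on this list does not show that a product carries amino acids. Slc43a3 had values of -0.39, -0.22, -0.54 and -0.35 at ZT03 and 0.44, 0.37, 0.65 and 0.27 at ZT15 (difference 0.80 ± 0.091, adjusted p = 0.00423). Slc38a3, a glutamine transporter, differed by 0.46 ± 0.066 (adjusted p = 0.0113). Slc1a5 differed by 0.33 ± 0.057 (adjusted p = 0.0268), and lost its call without ZT03 replicate 1, 2, 3 or 4 or ZT15 replicate 1, 2 or 4. Its probe sets were at 0.48 and 0.19, the latter not called on its own (adjusted p over probe sets = 0.388).

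In the list of NAD synthesis and NRF2 redox genes the 4 called of 30 were higher, with a list median of 0.021. Gsta3, a glutathione transferase, was 1.47-fold higher (0.56 ± 0.077, adjusted p = 0.00985). Nfe2l2, which encodes NRF2 itself, differed by 0.39 ± 0.068, the haem-degrading Hmox1 by 0.39 ± 0.070 and the glutathione synthesis subunit Gclm by 0.41 ± 0.082 (adjusted p = 0.0266, 0.0309 and 0.0449). Each of these 3 lost its call without any of 6 of the 8 arrays, with adjusted p up to 0.0802, 0.0932 and 0.124: Nfe2l2 held without ZT03 replicate 4 or ZT15 replicate 1, Hmox1 without ZT03 replicate 3 or ZT15 replicate 4, and Gclm without ZT15 replicate 1 or 2. Between 1 and 3 members were called when 1 array was left out.

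**Figure D3:**
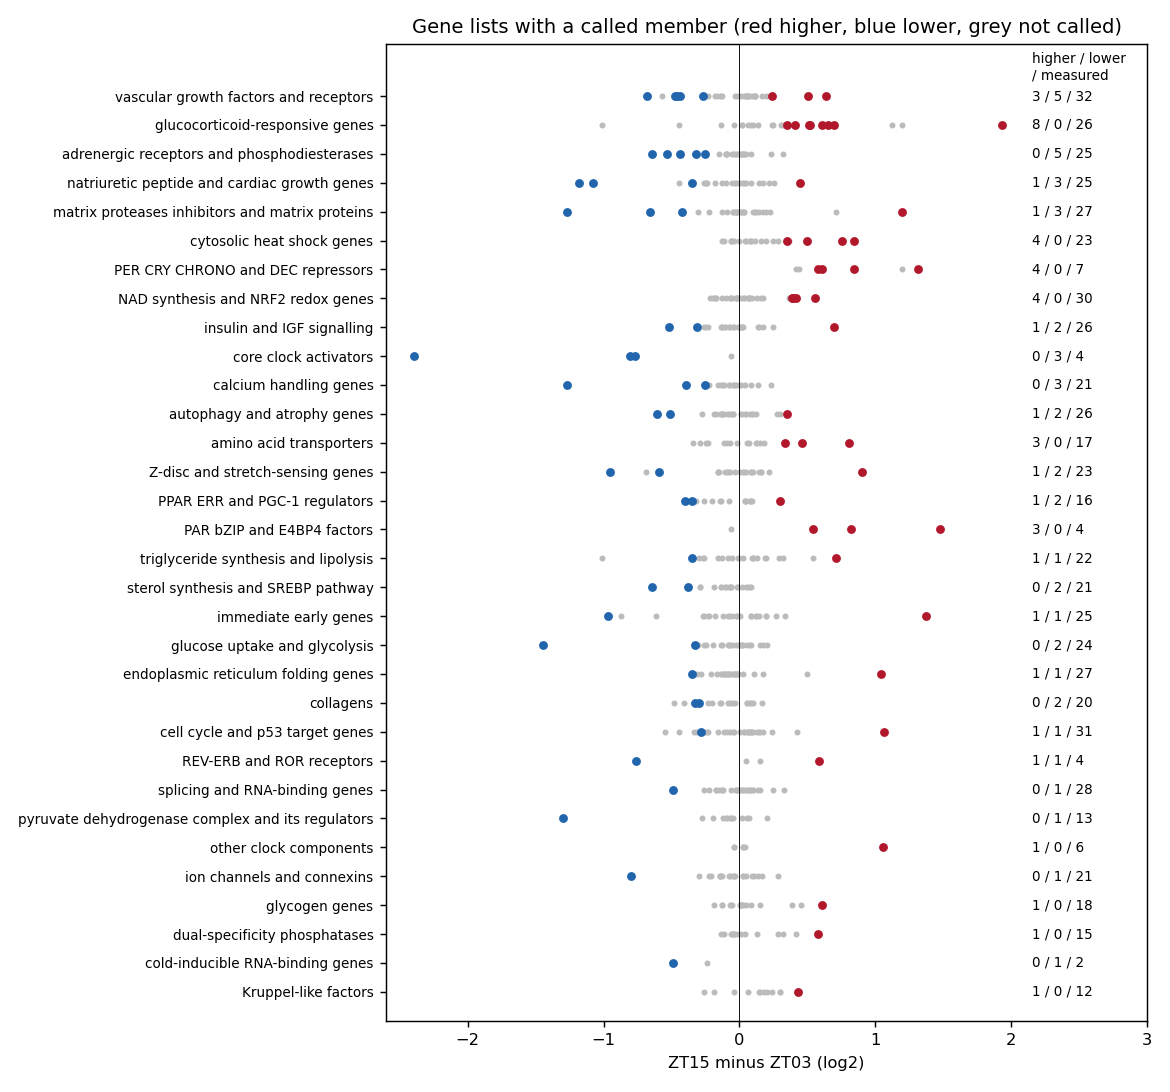
Difference between ZT15 and ZT03 (x axis, log2) for every measured member of the 32 gene lists with a called member (y axis); red members were called higher, blue lower and grey not called, with the counts at the right. Called glucocorticoid-responsive genes, 8 of 26, all lie to the right, and called adrenergic and phosphodiesterase genes, 5 of 25, all lie to the left.

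Among genes of heart muscle itself, signalling and stretch-sensing lists held called genes. None of 23 sarcomere genes was called, but with 1.69% of all genes called a list of this size would often hold none. Sarcomere differences ran from -0.63 to 0.16 (median -0.025), and Ttn had the smallest p (-0.14 ± 0.036, adjusted p = 0.113). In the fit of 24 arrays, 2 sarcomere genes were called. Rcan1, a feedback inhibitor of calcineurin, had values of 0.69, 0.77, 0.48 and 0.63 at ZT03 and -0.56, -0.56, -0.48 and -0.56 at ZT15. The ZT15 arrays lay close together, and Rcan1 was 2.26-fold lower (-1.18 ± 0.062, adjusted p = 7.02e-05). Nppb, which encodes brain natriuretic peptide, had values of 0.49, 1.02, 0.47 and 0.26 at ZT03 and -1.01, -0.58, -0.45 and -0.041 at ZT15. It was 2.12-fold lower (-1.08 ± 0.21, adjusted p = 0.045), but the call was lost without ZT03 replicate 1, 2, 3 or 4 or ZT15 replicate 1, 2 or 3 (adjusted p up to 0.119). The histone deacetylases of cardiac growth split, with Hdac9 lower (-0.35 ± 0.047, adjusted p = 0.00887) and Hdac4 higher (0.44 ± 0.075, adjusted p = 0.0242, lost without ZT03 replicate 1, 2 or 3 or ZT15 replicate 2, 3 or 4). These were the 4 called of 25 growth genes.

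Tcap, the titin cap protein of the Z-disc, had values of -0.64, -0.83, -0.57 and -0.29 at ZT03 and 0.21, 0.44, 0.40 and 0.22 at ZT15, 1.86-fold higher (0.90 ± 0.11, adjusted p = 0.00573). Ankrd23, a stretch-responsive ankyrin repeat protein bound to titin, was 1.94-fold lower (-0.95 ± 0.12, adjusted p = 0.0073). Cavin4, a muscle coat protein of caveolae, had values of 0.35, 0.27, 0.25 and 0.30 at ZT03 and -0.32, -0.41, -0.26 and -0.22 at ZT15 (difference -0.59 ± 0.049, adjusted p = 0.000866). They were the called 3 of 23 Z-disc and stretch-sensing genes, whose median was 0.0029.

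Calcium genes were lower at ZT15 in the 3 called of 21. Rrad encodes a small GTPase that holds back the L-type calcium channel. Its values were 0.75, 0.76, 0.88 and 0.78 at ZT03 and -0.31, -0.68, -0.76 and -0.15 at ZT15, a narrow group against a wide one, 2.41-fold lower (-1.27 ± 0.13, adjusted p = 0.0025). Slc8a1, the sodium-calcium exchanger, differed by -0.40 ± 0.053 (adjusted p = 0.00882). Cacna1c, the pore of the L-type channel, differed by -0.26 ± 0.048 (adjusted p = 0.037), a call lost without ZT03 replicate 1, 2 or 4 or ZT15 replicate 1, 2, 3 or 4 (adjusted p up to 0.105). Gja1, the gap junction protein connexin 43, had values of 0.34, 0.46, 0.26 and 0.35 at ZT03 and -0.70, -0.49, -0.35 and -0.22 at ZT15 (difference -0.80 ± 0.097, adjusted p = 0.00587), the 1 called of 21 ion channel and connexin genes.

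Of 25 genes of the adrenergic and cyclic AMP pathway, 5 were called, all lower, with a list median of -0.049. Pde3a, a cyclic AMP phosphodiesterase of cardiac muscle, had values of 0.44, 0.28, 0.21 and 0.39 at ZT03 and -0.54, -0.26, -0.12 and -0.33 at ZT15 (difference -0.64 ± 0.089, adjusted p = 0.00992). Prkar1a, a regulatory subunit of protein kinase A, differed by -0.54 ± 0.080 (adjusted p = 0.0136), and lost its call without ZT15 replicate 2 (adjusted p = 0.0502). Grk5, a kinase that desensitises receptors, differed by -0.44 ± 0.056 (adjusted p = 0.0073). Adra1b, an alpha-1 receptor, differed by -0.25 ± 0.041 (adjusted p = 0.0201, lost without ZT03 replicate 2, 3 or 4 or ZT15 replicate 2). Pde4a, named after its value was seen, was at -0.32 (adjusted p = 0.0267), a call lost without ZT03 replicate 1, 2, 3 or 4 or ZT15 replicate 2 or 3 (adjusted p up to 0.0864). With 1 array left out, 2 to 6 members were called.

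In the vasculature list 8 of 32 genes were called, 3 higher and 5 lower. The VEGF receptors went opposite ways. Flt1, the decoy receptor VEGFR1, had values of -0.15, -0.16, -0.043 and -0.11 at ZT03 and 0.57, 0.42, 0.30 and 0.26 at ZT15 (difference 0.51 ± 0.068, adjusted p = 0.00882). Kdr, the signalling receptor VEGFR2, had values of 0.37, 0.44, 0.47 and 0.22 at ZT03 and -0.34, -0.26, -0.47 and -0.16 at ZT15 (difference -0.68 ± 0.077, adjusted p = 0.00431). Both are endothelial markers. They were the 2 called of the 12 markers on that list, whose median was 0.043.

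Ace, the angiotensin-converting enzyme, was 1.55-fold higher (0.63 ± 0.055, adjusted p = 0.00115). Hif1a was lower (-0.44 ± 0.047, adjusted p = 0.00339), but 1 of its 2 probe sets carried the change (-0.84 ± 0.068 against -0.036 ± 0.056). The other called members, named after their values were seen, were Epas1 at 0.24, Nrp1 at -0.27, Ednrb at -0.46 and Aplnr at -0.47. Epas1 lost its call in 7 of the 8 repeats and Nrp1 and Aplnr in 6 each (adjusted p up to 0.124, 0.108 and 0.121): Epas1 held without ZT03 replicate 1, Nrp1 without ZT03 replicate 4 or ZT15 replicate 1 and Aplnr without ZT03 replicate 4 or ZT15 replicate 4. With 1 array left out, 5 to 7 members of the list were called.

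Matrix genes held some of the largest values. Timp3, the matrix-bound inhibitor of metalloproteinases, had values of -0.60, -0.51, -0.48 and -0.35 at ZT03 and 0.81, 0.56, 0.85 and 0.62 at ZT15, 2.29-fold higher (1.20 ± 0.079, adjusted p = 0.000291). The proteases Mmp14 and Adamts5 were lower (-0.66 ± 0.080 and -0.42 ± 0.048, adjusted p = 0.00587 and 0.00423). Spon2, a secreted matrix protein, had values of 0.87, 1.30, 1.32 and 0.99 at ZT03 and -0.026, -0.27, -0.32 and 0.026 at ZT15, 2.41-fold lower (-1.27 ± 0.12, adjusted p = 0.00184). These were 4 called of 27. Of 20 collagens, Col5a3 and Col15a1 were lower (-0.32 ± 0.054 and -0.30 ± 0.052, adjusted p = 0.0221 and 0.0276). Col5a3 lost its call without ZT03 replicate 1, 3 or 4 or ZT15 replicate 2, and Col15a1 without ZT03 replicate 1, 2, 3 or 4 or ZT15 replicate 3 or 4.

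Several of the largest differences lay in genes of growth control and metabolism outside these pathways. Ier3, an early response gene that limits cell death, had values of -0.74, -0.70, -0.64 and -0.62 at ZT03 and 0.39, 0.77, 0.77 and 0.86 at ZT15, 2.59-fold higher (1.37 ± 0.095, adjusted p = 0.000381). Ccn1, a matricellular early response gene, had values of 0.63, 1.02, 0.88 and 0.80 at ZT03 and 0.00037, -0.19, -0.16 and -0.19 at ZT15, 1.96-fold lower (-0.97 ± 0.082, adjusted p = 0.00101). These 2 were the called immediate early genes among 25, one in each direction. Wee1, the kinase that holds back mitosis, was 2.09-fold higher (1.07 ± 0.14, adjusted p = 0.00796). The cyclin Ccng2 was lower (-0.28 ± 0.038, adjusted p = 0.00882), and no other of 31 cell cycle genes was called. Dusp7, a MAP kinase phosphatase, was higher (0.58 ± 0.094, adjusted p = 0.0202, lost without ZT03 replicate 1, 2, 3 or 4), the 1 of 15 called.

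Slc41a3, of a magnesium transporter family, had values of 0.64, 0.70, 0.70 and 0.72 at ZT03 and -1.12, -0.86, -0.75 and -0.89 at ZT15. Its difference was the next largest after Arntl among lower genes, 3.02-fold (-1.59 ± 0.072, adjusted p = 3.45e-05). Tfrc, the transferrin receptor, had values of 0.47, 0.66, 0.45 and 0.46 at ZT03 and -0.62, -0.52, -0.73 and -0.38 at ZT15 (difference -1.07 ± 0.081, adjusted p = 0.000658). Sox4, a transcription factor, was 2.02-fold lower (-1.01 ± 0.053, adjusted p = 7.02e-05), and both of its probe sets were called (-0.73 and -1.30). Epha4, an ephrin receptor, differed by -1.06 ± 0.081, the actin-severing Scin by -0.95 ± 0.061 and the ubiquitin ligase adaptor Wsb1 by -0.84 ± 0.061 (adjusted p = 0.000658, 0.000288 and 0.000524).

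Among higher genes, Fmo2, a flavin monooxygenase, had values of -0.44, -0.30, -0.34 and -0.58 at ZT03 and 0.89, 0.79, 1.02 and 0.56 at ZT15, 2.35-fold higher (1.23 ± 0.10, adjusted p = 0.000866). Aldh1a1, which makes retinoic acid, differed by 1.03 ± 0.13, the secreted Angptl7 by 1.06 ± 0.15 and Lonrf1 by 0.996 ± 0.090 (adjusted p = 0.00763, 0.00951 and 0.00133). Coq10b, which binds coenzyme Q, differed by 0.95 ± 0.17 (adjusted p = 0.0307), a call lost without ZT03 replicate 1, 2 or 3 or ZT15 replicate 2, 3 or 4. The interferon-inducible Ifi205 differed by 0.94 ± 0.16 (adjusted p = 0.0227), a call lost without ZT03 replicate 2 or 4 or ZT15 replicate 2 or 3.

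The other lists gave no called gene: 39 ribosomal proteins (median 0.0041), 19 interferon-inducible genes (median 0.0092) and 23 acute phase and cytokine genes (median 0.086). Lists of these sizes would often hold none when 1.69% of all genes are called.

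A few microRNA genes and one host transcript were lower at ZT15; they are outside the rule for named genes and were singled out after their values were seen. Of 478 microRNA genes measured, 4 were called (0.837%, against 1.69% of all genes), all lower, and 3 of the 4 lost their calls in most of the repeats. Mir99a and Mirlet7c-1 lie less than 1 kb apart on chromosome 16. Their mature 5′ arms, from RefSeq's GRCm38.p6 set, are at chr16:77598940-77598961 and chr16:77599672-77599693 on the plus strand and carry different seeds (capitals, bases 2 to 8).
mmu-miR-99a-5p: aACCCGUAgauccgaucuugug
mmu-let-7c-5p: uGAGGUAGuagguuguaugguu
The arrays measured RNA over the hairpin genes and do not report the mature forms. Mir99a had values of 0.91, 0.72, 0.66 and 0.28 at ZT03 and -0.47, -0.33, -0.50 and -0.056 at ZT15, 1.98-fold lower (-0.98 ± 0.14, adjusted p = 0.0112). Mirlet7c-1 had values of 1.31, 0.77, 0.49 and 0.37 at ZT03 and -0.56, -0.23, -0.30 and 0.017 at ZT15, a wider spread and a call lost in 6 of the 8 repeats (-1.004 ± 0.20, adjusted p = 0.0469, up to 0.124). The long non-coding RNA Mir99ahg, the host gene named for Mir99a, had values of 0.55, 0.46, 0.43 and 0.20 at ZT03 and -0.18, -0.086, -0.32 and -0.17 at ZT15 (difference -0.60 ± 0.079, adjusted p = 0.00796). In all 3 transcripts ZT03 replicate 1 was the highest of the 8 arrays. Mir341 and Mir877 differed by -0.28 ± 0.056 and -0.26 ± 0.051 (adjusted p = 0.0443 and 0.0479), and lost their calls in 7 and 8 of the 8 repeats.

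Most marker lists of cell types held no called gene. Since 1.69% of all genes were called, a list this short would often hold none, so such a count says little about a cell type. None of 12 ventricular cardiomyocyte markers was called (differences from -0.16 to 0.038), nor any of 12 fibroblast, 10 smooth muscle and pericyte, 12 neutrophil, 9 lymphocyte or 12 skeletal muscle markers. The same held for 9 adipocyte, 8 lung, 5 thymus, 6 Schwann cell and neuron, 8 mesothelium and 2 red cell markers. Centred values cannot show whether a marker was present, so the label myocardium could not be checked by level. Of 10 atrial markers 1 was higher, Nr2f2 (0.29 ± 0.048, adjusted p = 0.0227, lost without ZT03 replicate 1, 3 or 4 or ZT15 replicate 3 or 4), and the list's median was -0.0093.

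Of 12 macrophage markers, 10 had higher means at ZT15 and 3 were called, all higher, with a list median of 0.18. Lyve1, a hyaluronan receptor of resident macrophages and lymphatic vessels, had values of -0.36, -0.48, -0.41 and -0.29 at ZT03 and 0.32, 0.46, 0.85 and 0.58 at ZT15, 1.91-fold higher (0.93 ± 0.10, adjusted p = 0.00417). The scavenger receptor Cd163 had values of -0.012, -0.20, -0.063 and -0.065 at ZT03 and 0.42, 0.27, 0.47 and 0.58 at ZT15 (difference 0.52 ± 0.070, adjusted p = 0.00882). F13a1 differed by 0.28 ± 0.054 (adjusted p = 0.0439), a call lost without ZT03 replicate 1, 3 or 4 or ZT15 replicate 1, 2, 3 or 4. Among the members not called, Adgre1 was at 0.013 and Mrc1 at 0.00088. The members with lower means were Csf1r at -0.095 and Cx3cr1 at -0.51 (adjusted p of Cx3cr1 = 0.106). The remaining members were higher in mean and not called. Per array, the mean over the 12 markers ran from -0.12 to 0.019 at ZT03 and from 0.055 to 0.23 at ZT15. Whether cell numbers or RNA per cell moved was not tested.

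Platelet genes set ZT15 replicate 1 apart. The mean over 17 platelet genes was -0.12 to -0.061 in the ZT03 arrays and -0.038 to 0.79 in the ZT15 arrays, with the 0.79 in replicate 1. None of the 17 was called, although their median difference was 0.27. Ppbp, the chemokine of platelet granules, differed by 1.42 ± 0.63 (adjusted p = 0.402). Without this array 99 of the 374 genes lost their calls and 275 kept them. Fewer, 184 to 255, kept them when any other single array was left out. The differences of Zbtb16, Dbp, Timp3 and Arntl without ZT15 replicate 1 were 1.89, 1.55, 1.16 and -2.39. The part of platelet RNA in the other results was not tested.

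The 2 times were set beside the other 4 to see where they fall in the day. Of the 170 genes higher at ZT15, that time had the highest of the 6 time means in 113 and ZT11 in 42, and ZT03 had the lowest in 103. Both were the extremes in 63. Of the 204 lower genes, ZT03 had the highest mean in 177 and ZT15 the lowest in 141, and both held in 120. For lower genes the median share of the whole range over 6 times that the ZT15 to ZT03 difference covered was 100%, for higher genes 94.9% and for all genes 43.1%. The call itself favours genes in which these times lie far apart, so these shares describe the called genes and were not tested.

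Called genes followed different courses over the day. Timp3 was as high at ZT11, at 0.73 ± 0.20 (SD, n = 4), as at ZT15, at 0.71 ± 0.14. Zbtb16 and Herpud1 had ZT11 means of 0.97 ± 0.19 and 0.49 ± 0.12, next to 0.91 ± 0.35 and 0.50 ± 0.059 at ZT15. By contrast Txnip stood highest at ZT03, at 1.06 ± 0.38, and was down to -0.041 ± 0.059 by ZT11. Nppb and Rcan1 had their lowest means before ZT15, at ZT11, at -0.93 ± 0.35 and -0.71 ± 0.13. Tcap reached 0.81 ± 0.027 at ZT11 and -1.09 ± 0.19 at ZT23, both farther out than its ZT15 and ZT03 means of 0.32 ± 0.12 and -0.58 ± 0.22.

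**Figure D4:**
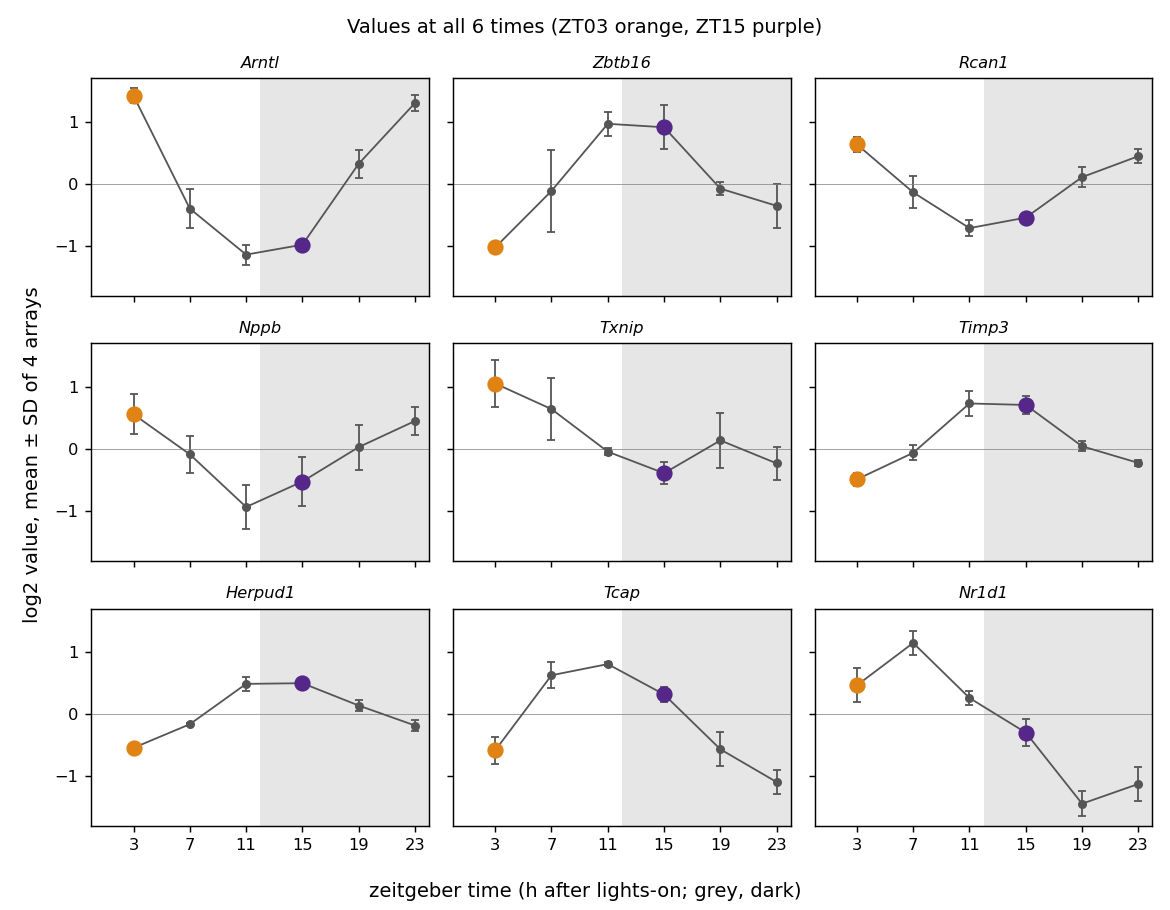
Mean log2 value with SD of 4 arrays (y axis) at each of the 6 zeitgeber times (x axis, hours; grey marks the dark) for 9 genes, with ZT03 in orange and ZT15 in purple. Zbtb16, Timp3 and Herpud1 are about as high at ZT11 as at ZT15, and Nr1d1 has its extremes at ZT07 and ZT19.

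The other pairs of opposite times, which share no array with ZT15 and ZT03, gave 178 called genes for ZT19 against ZT07 (0.803%) and 387 for ZT23 against ZT11 (1.74%), each from 8 arrays. Of the 374 genes, 45 were called in the first of these and 84 in the second. The difference between pairs was tested in a fit of all 24 arrays. It was called for 115 genes (0.518%) against ZT19 and ZT07, 71 of them among the 374 (19%). Against ZT23 and ZT11 it was called for 834 genes (3.76%), 261 of them among the 374 (69.8%). The ZT15 to ZT03 difference that picked the 374 is also part of this test. The choice of genes therefore raises the shares among the 374, which were not tested.

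Arntl shows the pattern: it was -2.39 for ZT15 minus ZT03, 0.72 ± 0.16 for ZT19 minus ZT07 and 2.44 ± 0.089 for ZT23 minus ZT11 (adjusted p of the difference between pairs 6.05e-10 and 7.95e-14). Dbp ran the other way, at 1.48, -1.07 ± 0.070 and -2.23 ± 0.094 for the 3 pairs in that order (adjusted p 1.16e-09 and 5.74e-13). So did Per3, at 1.32, -0.50 ± 0.099 and -1.74 ± 0.067 (adjusted p 2.28e-08 and 7.18e-13). In all 3 genes the sign at ZT23 against ZT11 was the reverse of that at ZT15 against ZT03.

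Among heart genes, Rcan1 was at -1.18, 0.24 ± 0.13 and 1.16 ± 0.077 (adjusted p 4.65e-06 and 4.28e-10). Tcap was at 0.90, -1.19 ± 0.14 and -1.90 ± 0.083 (adjusted p 5.05e-07 and 6.45e-10). Nppb, at -1.08, 0.12 ± 0.19 and 1.38 ± 0.17, differed from the pair ZT23 and ZT11 (adjusted p 1.65e-05) and did not pass against ZT19 and ZT07 (adjusted p 0.088). Zbtb16 was high at ZT15 against ZT03 (1.93), near 0 at ZT19 against ZT07 (0.037 ± 0.28) and low at ZT23 against ZT11 (-1.32 ± 0.16; adjusted p 0.00426 and 9.61e-07). Spon2 was the mirror image, at -1.27, -0.042 ± 0.076 and 1.10 ± 0.086 (adjusted p 5.88e-05 and 5.38e-10).

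Slc41a3 and Epha4 differed from both other pairs as well. Slc41a3 was at -1.59, -0.46 ± 0.097 and 0.92 ± 0.082 (adjusted p 2.22e-05 and 2.20e-11), and Epha4 at -1.06, 0.34 ± 0.093 and 0.82 ± 0.061 (adjusted p 5.05e-07 and 6.63e-10). The REV-ERB genes parted here too. Nr1d1 was lower at the later time of every pair, at -0.76, -2.58 ± 0.11 and -1.38 ± 0.12, with its largest difference at ZT19 against ZT07 (adjusted p 1.45e-05 and 0.102). Nr1d2 was higher at ZT15 and lower at the later time of both other pairs, at 0.59, -0.99 ± 0.10 and -1.88 ± 0.070 (adjusted p 1.75e-06 and 3.43e-10).

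**Figure D5:**
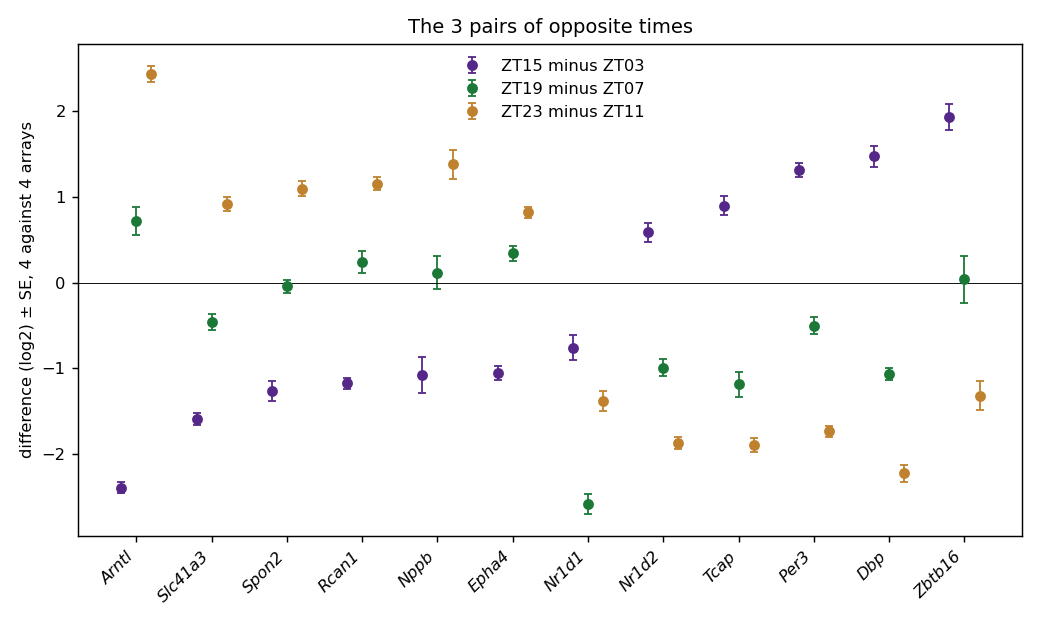
Difference (y axis, log2, with SE) between opposite times for 12 genes (x axis): ZT15 minus ZT03 in purple, ZT19 minus ZT07 in green and ZT23 minus ZT11 in brown, each from 4 against 4 arrays. For Arntl, Rcan1, Dbp, Per3 and Zbtb16 the purple and brown points lie on opposite sides of 0, and for Nr1d1 all 3 lie below it.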

How the data were processed

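Affymetrix mouse gene arrays received biotinylated cRNA made from 500 ng of total RNA, per the labels' protocols. The authors deposited 1 log2 value per probe set and array, with each probe set's median over 24 arrays at 0. Base 2 and the direction (higher is more RNA) are assumed, and every fold change rests on them. How probe sets were summarised and normalized, and with which tool, is not given in the sources used here. No signal over background is known, dim genes could not be filtered, and the number of arrays limits the precision.

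Of 34351 probe sets, 23521 named 1 gene in the platform annotation, 1814 several and 9016 none. Those with 1 gene were averaged to 22180 genes. Symbols were checked against RefSeq (23328 probe sets found, 0 changed). Groups follow the labels. The 8 arrays were fitted alone in limma 3.58.1 under R 4.3.3 with 6 residual degrees of freedom. The test was checked on simulated data with known changes. Of genes changed by 0.3 on the log2 scale 60% were called, and of those changed by 0.5, 88%. False calls were 10 of 184. The simulated noise was normal, independent and of equal spread in all arrays, unlike the wider ZT15 replicate 1.

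The comparison, the 41 gene lists, the 16 marker lists and the other choices were made with earlier results of these data known. Named were the 15 largest non-overlapping called differences in each direction, all clock list members, up to 4 called members of each other list by p (or the member with the smallest p) and the 5 largest differences between pairs of opposite times in each direction. Predicted and microRNA genes were outside this rule. Most of the smallest-p members of lists without a called gene are not given in the text, and one called gene that the rule names is not reported here. Alternatives were a fit of 24 arrays, a replicate block, robust variances, array weights, median centring, quantile normalization, the most variable probe set, protein-coding genes alone and each array left out.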

Additional observations from a re-analysis of the deposited data

Results flagged for a closer look

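Of 256 groups of 4 arrays tested (a named gene at 1 time), 19 held an array far from the other 3 by Dixon's test, and chance alone flags about 1 in 20 groups. Log2 values of the array that stood apart were, for the first of these, Ace in ZT15 replicate 3 (0.55, others 0.37 to 0.39), Ankrd23 in ZT03 replicate 2 (0.82, others 0.36 to 0.44), Col5a3 in ZT15 replicate 3 (-0.20, others -0.037 to -0.034) and Dbp in ZT03 replicate 4 (-0.76, others -1.17 to -1.11). A gap of this kind was also found for Dnajb1 in ZT15 replicate 2 (0.48, others 0.27 to 0.30), Dusp7 in ZT03 replicate 3 (-0.55, others -0.35 to -0.32), Foxo3 in ZT03 replicate 1 (-0.30, others -0.098 to -0.072) and Gabpa in ZT03 replicate 1 (0.11, others 0.17 to 0.18). The same was seen for Gabpa in ZT15 replicate 3 (-0.36, others -0.22 to -0.19), Gp6 in ZT03 replicate 3 (-0.32, others -0.090 to -0.043), Iigp1 in ZT15 replicate 1 (0.060, others -0.22 to -0.18) and Klf12 in ZT15 replicate 4 (0.44, others 0.19 to 0.23). Further arrays that stood apart were those of Nr1d2 in ZT15 replicate 1 (0.024, others 0.34 to 0.38), Pfkfb2 in ZT03 replicate 1 (0.033, others 0.25 to 0.27), Psmd4 in ZT15 replicate 1 (0.47, others 0.14 to 0.19) and Rcan1 in ZT15 replicate 3 (-0.48, others -0.56 to -0.56). The last were those of Retn in ZT03 replicate 1 (0.18, others -0.028 to -0.014), Tfrc in ZT03 replicate 2 (0.66, others 0.45 to 0.47) and Zbtb16 in ZT15 replicate 4 (0.39, others 1.05 to 1.16). With that array left out, the call between the times was kept for Ace, Ankrd23, Col5a3, Dbp, Dnajb1, Gabpa, Klf12, Nr1d2, Pfkfb2, Rcan1, Tfrc and Zbtb16 and lost for Dusp7 and Foxo3. ZT15 replicate 1 was the array in 3 of the 19 cases.

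The 12 genes named for the largest differences between pairs of opposite times are listed here. In each, the change from ZT03 to ZT15 differed from that of another pair, tested as a difference of differences in the 24-array fit. Other named genes, such as Herpud1 and Timp3, passed this test too and are not listed. Each value is ZT15 minus ZT03 less the other pair's difference (log2 ± SE), first against ZT19 minus ZT07 and then against ZT23 minus ZT11. Arntl gave -3.12 ± 0.17 and -4.83 ± 0.17. For Slc41a3 they were -1.13 ± 0.13 and -2.51 ± 0.13. Spon2 gave -1.23 ± 0.15 and -2.36 ± 0.15. For Rcan1 they were -1.42 ± 0.14 and -2.33 ± 0.14. Epha4 gave -1.40 ± 0.12 and -1.88 ± 0.12. For Zbtb16 they were 1.90 ± 0.33 and 3.25 ± 0.33. Dbp gave 2.54 ± 0.15 and 3.71 ± 0.15. For Per3 they were 1.82 ± 0.13 and 3.05 ± 0.13. Tcap gave 2.09 ± 0.18 and 2.80 ± 0.18. For Nr1d2 they were 1.58 ± 0.15 and 2.46 ± 0.15. Nppb passed the test against ZT23 and ZT11 (-2.46 ± 0.31), and Nr1d1 that against ZT19 and ZT07 (1.82 ± 0.20). Adjusted p-values stand with these genes in the comparison of the pairs.

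Probe sets that name no gene or several genes were left out of every comparison. Of these 10830 probe sets, 47 (0.434%) were called between ZT15 and ZT03 in the same test, 21 higher and 26 lower.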

How the results depend on the processing

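One fit of all 24 arrays called 679 genes, 302 higher and 377 lower, of which 332 were among the 374; in that fit ZT19 against ZT07 rose from 178 to 353 called genes and ZT23 against ZT11 from 387 to 604. With the replicate number as a replicate block 68 genes were called, 34 higher and 34 lower, 67 of them among the 374. The numbers are not stated to pair the samples. Correlations of same-numbered arrays' deviations were -0.198, -0.0247, -0.169 and -0.0892, and those of differently numbered arrays ran from -0.179 to 0.238. So few values cannot show whether the numbers pair samples. Leaving out 1 array in turn gave 198 to 341 called genes, 94 to 163 higher and 100 to 191 lower. Without an array other than ZT15 replicate 1 or 4, at most 234 were called. Robust variances (340), array weights (460), median centring (380), quantile normalization (448), the most variable probe set (377) and protein-coding genes alone (398) stayed within 1.5 times of 374. No named gene called reversed its sign under these settings. Of 94 named called genes, 54 did not pass with the block, and 3 did not pass in the 24-array fit. The share of higher genes among those called ran from 41.4% to 51.5% over the settings, against 45.5%. The median difference over all genes stayed below 0.01 on the log2 scale. The cause of these shifts was not tested. Leaving out an array or adding a block also lowered the number of arrays or the degrees of freedom.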
